A study of Homo sapiens with 6 samples.

Results

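A set of 6 melanoma antigen (MAGE) genes were followed in PC-3 cells: MAGEA3, MAGEA6, MAGED1, MAGED2, MAGEF1 and MAGEH1. They were found by gene name in the deposited count table and make up 6 of its 57396 genes, and 6 of the 15312 that passed the filter on low counts. The selection was made with the levels and the SAM against control changes of these same libraries known, so the values below are a description and support nothing by themselves. PC-3 is an established line from a metastasis of a prostate carcinoma. The treated group received 160 micromolar S-adenosylmethionine (SAM), the methyl donor of most cellular methylation reactions, for 5 d. The control group is labelled PBS, also for 5 d, and the treatment text calls it vehicle. Each group held 3 libraries of messenger RNA, and the comparison asked which transcripts differed after SAM. The labels do not state whether replicates were independent cultures, so each p-value speaks of variation among libraries that could be technical.

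MAGE proteins share a conserved MAGE homology domain, through which many of them bind a RING-type ubiquitin ligase and direct it to substrates. Type I genes, the MAGEA, MAGEB and MAGEC clusters on chromosome X, are normally silent outside the germ line and placenta and are switched on in many tumours, often with loss of promoter DNA methylation. Type II genes, to which MAGED1, MAGED2, MAGEF1 and MAGEH1 belong, are transcribed in many normal tissues. Of the selected genes only MAGEA3 and MAGEA6 are type I, and these are the ones known as cancer-testis antigens.

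MAGEA3 (ENSG00000221867) lies on the plus strand of chromosome X at positions 152698752 to 152702347 (GRCh38, deposited coordinates) and MAGEA6 (ENSG00000197172) on the minus strand at 152766136 to 152769747. Each has 3 exons in its main GENCODE transcript, with the whole coding sequence in 1 of them. The facing copies are so alike that their reads are hard to divide. Over the 3581 bases of the annotated gene they differed at 27 positions (99.2% identical), of which 24 were in exons and 18 within the 942 coding bases. No difference was found in the 508 bases before the start or in the first 1202 bases of the gene, which hold exon 1. Of all 50-base windows of MAGEA3 transcripts, 44.2% occurred in no other GENCODE gene, as did 46.3% of those of MAGEA6. With 100-base windows these shares were 64.2% and 65.9%. The read length and the treatment of reads that match both genes were not stated in the sources used here, and both genes are therefore given with their sum. By contrast, at least 98.4% of the 50-base windows of MAGED1, MAGED2, MAGEF1 and MAGEH1 were found in no other gene.

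**Figure D1:**
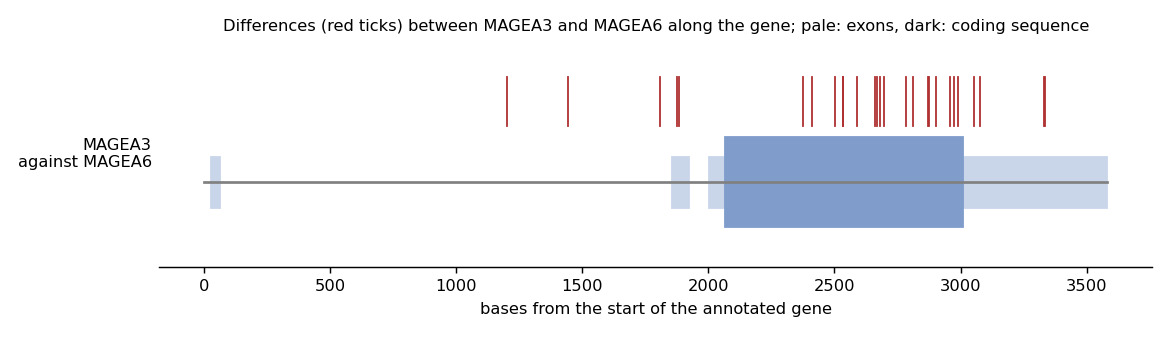
MAGEA3 compared base by base with the reverse complement of MAGEA6, plotted as bases from the start of the annotated gene (horizontal axis), with exons in pale blue, the coding sequence in dark blue and each difference as a red tick. Of the 27 ticks 18 lie over the coding sequence, and none falls in the first 1202 bases.

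The promoters of both genes are shown because they are the same sequence. In RefSeq (GRCh38.p14) the 250 bases before and 50 bases after the start site of MAGEA3 and MAGEA6 differed at 0 of 300 positions. The 192 bases that lie before the deposited start of either gene are printed here 5′ to 3′, with the letters GGATGTGA in capitals, at chrX:152698544-152698735 on the plus strand for MAGEA3 and at chrX:152769748-152769939 on the minus strand for MAGEA6.
MAGEA3 and MAGEA6: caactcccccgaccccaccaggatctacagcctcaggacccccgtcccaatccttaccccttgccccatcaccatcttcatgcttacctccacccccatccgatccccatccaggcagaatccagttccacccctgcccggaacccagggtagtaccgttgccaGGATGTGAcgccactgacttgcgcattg

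The 8 letters GGATGTGA were chosen after the sequences had been read. They stand 78 bases before the RefSeq start of both genes and occur, on either strand, in the 250 bases before the start of 0.965% of 35116 promoters. All 8 MAGEA genes with a promoter in the table hold them. The 28 bases around them are printed for MAGEA3 and MAGEA6 and, for comparison, for 6 further MAGEA genes, with the shared letters in capitals. MAGEA12, MAGEA8, MAGEA11 and MAGEA4 (shown with 1 of its 5 windows) had at most 3 counts in any library. The MAGEA9 window ends directly before the gene deposited as MAGEA9B (X:149781930-149787737), which had no count in any library. The counts of MAGEA2 were not analysed here.
MAGEA3, chrX:152698698-152698725, plus strand: accgttgccaGGATGTGAcgccactgac
MAGEA6, chrX:152769758-152769785, minus strand: accgttgccaGGATGTGAcgccactgac
MAGEA12, chrX:152733735-152733762, plus strand: tcacggggccGGATGTGAcgccactgac
MAGEA2, chrX:152753885-152753912, minus strand: tcacgggcccGGATGTGAcgccactgac
MAGEA8, chrX:149881161-149881188, plus strand: ctgggtggacGGATGTGAcgccactgac
MAGEA9, chrX:149781902-149781929, plus strand: cttgggggccGGATGTGAcgtcactgac
MAGEA11, chrX:149712037-149712064, plus strand: cgtgggggccGGATGTGAcctccattgg
MAGEA4, chrX:151912444-151912471, plus strand: caggtggcccGGATGTGAcatccctgac

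A CpG, the dinucleotide that DNA methyltransferases modify, spans the left edge of the capitals in 10 of the 12 windows found. The 2 windows without it are those of MAGEA3 and MAGEA6. Several of the 10 come from MAGEA4 alone, and the 2 without it are the same sequence, so the windows are not separate cases. They were found with letters chosen after the sequences had been read, and MAGEA1 was not among the promoters searched. Whether this CpG bears on the counts was not tested. The 250 bases before the start held 15 CpG and 62.0% GC in both genes, against a median of 11 CpG over all promoters. MAGEF1 held 12 CpG there, and the 2 RefSeq start sites each of MAGED1 and MAGED2 held 6 and 17, and 6 and 8. The ETS core CCGGAA, searched on both strands, occurred once in the 250 bases before the start of MAGEA3, MAGEA6 and MAGEF1, against 14.5% of all promoters with at least 1. It was not found in the RefSeq promoters of MAGED1 and MAGED2. No methylation or binding was measured in these libraries, and these matches describe letters only.

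Depth was 9379258, 21768273 and 19985193 counts for controls 1 to 3, and 28995160, 12020601 and 15467639 counts for the SAM libraries in the same order. A count of 3 corresponds to 0.322 CPM (counts relative to the TMM-adjusted library size) in control 1, the shallowest, and to 0.103 CPM in SAM 1, the deepest. All 5 epithelial markers of the line were tested. CDH1, the epithelial cadherin, fell from 365 ± 22.3 to 267 ± 31.7 CPM (log2 change -0.45, SE 0.11, edgeR adjusted p = 0.0298), a call lost without control 1, control 2, control 3 or SAM 1 (adjusted p 0.141, 0.0884, 0.133 and 0.119). KRT18, KRT8, KRT19 and EPCAM stood between 420.2 and 1062 CPM in controls and did not pass the test. The luminal markers KLK2 and KLK3 had no count in any library, and the protease TMPRSS2, a further luminal marker, fell from 5.13 to 3.29 CPM (log2 change -0.63, SE 0.18, adjusted p = 0.0493), a call lost without any one of the libraries except SAM 3 (adjusted p up to 0.162). Of 9 leukocyte, endothelial and fibroblast markers in the table, only COL1A1 was tested, at 17.7 CPM in controls and 16.8 with SAM. The germ cell markers DDX4, SYCP1, PIWIL1, PRM1 and TNP1 had no count in any library, and the highest count of the 8 germ cell markers was 6, for SYCP3. In bulk RNA, fewer cells that transcribe a gene and less of its RNA per cell cannot be told apart.

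MAGEA3 and MAGEA6, which pair with the ligase TRIM28, were both higher with SAM. MAGEA3 read 53.1, 53.7 and 51.9 CPM in the 3 controls and 69.8, 62.8 and 69.1 CPM in the 3 SAM libraries. The groups did not overlap, and the lowest SAM library, SAM 2, stood above the highest control. The means were 52.9 ± 0.948 and 67.2 ± 3.81 CPM (SD, n = 3), a log2 change of 0.35 (SE 0.09, edgeR adjusted p = 0.0340 over all genes). MAGEA6 read 56.7, 55.7 and 55.5 CPM in controls and 79.1, 70.9 and 72.8 CPM with SAM, again without overlap and with SAM 1 highest. Its means were 56.0 ± 0.664 and 74.3 ± 4.32 CPM (SD, n = 3), a log2 change of 0.41 (SE 0.09, adjusted p = 0.0214). As a sum, which does not depend on how reads were divided, the pair read 109.8, 109.4 and 107.4 CPM in controls and 148.9, 133.7 and 141.9 CPM with SAM. The sum went from 108.9 ± 1.31 to 141.5 ± 7.59 CPM (SD, n = 3), a log2 change of 0.38 (SE 0.09, adjusted p = 0.0298).

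**Figure D2:**
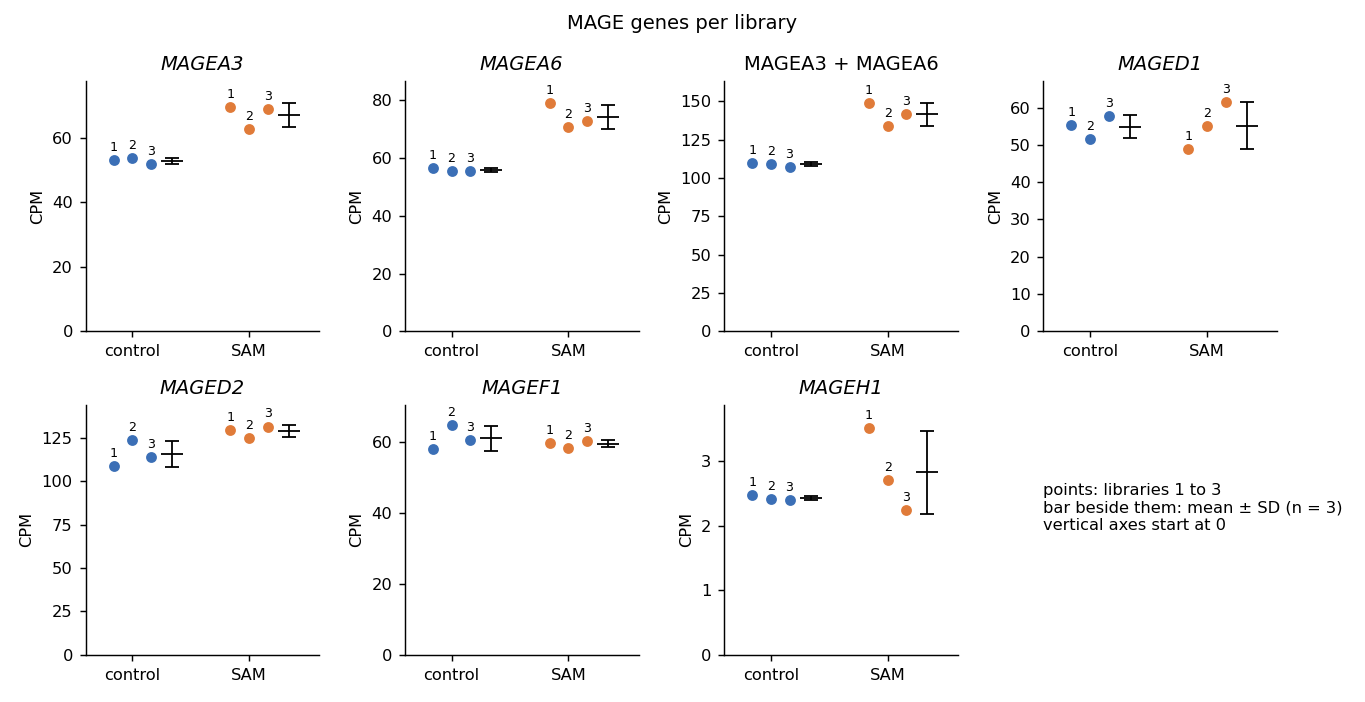
CPM (vertical axes, starting at 0) of each gene and of the MAGEA3 and MAGEA6 sum in control (blue) and SAM (orange) libraries 1 to 3, with the mean ± SD (n = 3) as a black bar beside them. For MAGEA3, MAGEA6, their sum and MAGED2 all SAM points lie above all control points, and for MAGED1, MAGEF1 and MAGEH1 the groups overlap.

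Both calls were lost when single libraries were left out. Without control 1, control 2, control 3 or SAM 1 the adjusted p was 0.158, 0.115, 0.175 and 0.104 for MAGEA3, 0.109, 0.0922, 0.125 and 0.0760 for MAGEA6 and 0.119, 0.119, 0.172 and 0.104 for their sum. In the same refits the genes called higher in the whole table fell from 795 to 114, 108, 61 and 107. Without SAM 2 or SAM 3 both genes and the sum passed the test. The log2 change stayed between 0.28 and 0.46 for either gene in every alternative run. The plot of alternatives gives each value.

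**Figure D3:**
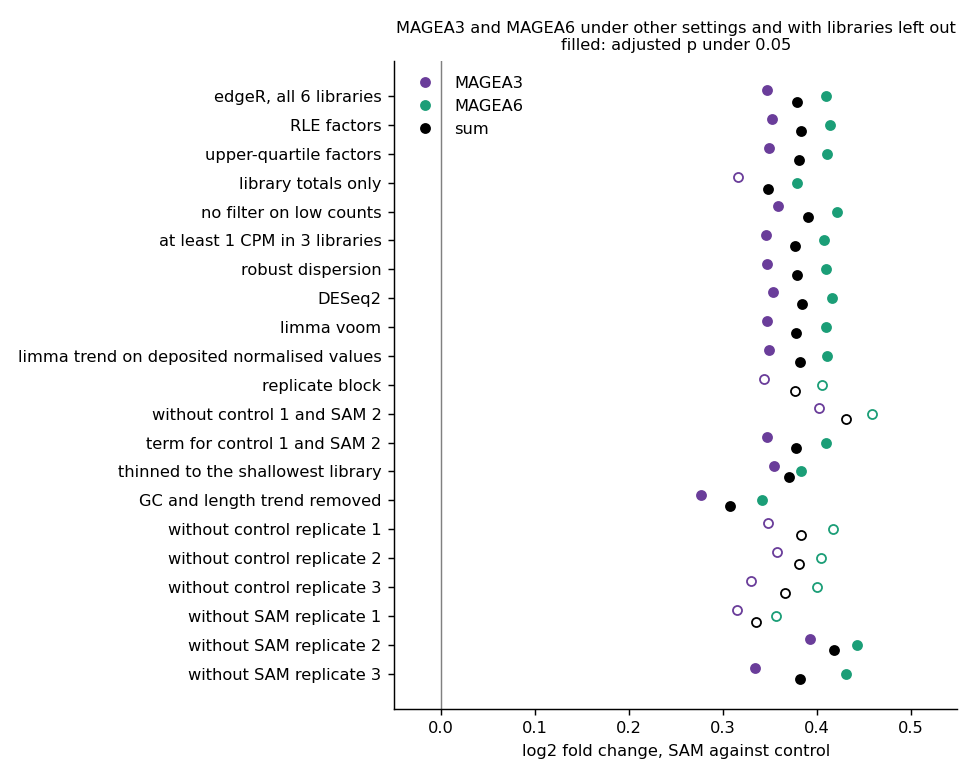
Log2 fold change of SAM against control (horizontal axis) for MAGEA3 (purple), MAGEA6 (green) and their sum (black) under each setting and with each library left out (vertical axis), filled where the adjusted p was under 0.05. All points lie to the right of 0, and open points mark the replicate block, the refits without control 1, control 2, control 3, SAM 1 or both control 1 and SAM 2, and MAGEA3 alone with library totals only.

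The division of reads between both genes was compared as the share of MAGEA3. MAGEA3 held 48.3% of the counts of both in control 1 (95% Wilson interval 45.3 to 51.4% of 1024 counts), 49.1% in control 2 (47.1 to 51.1%) and 48.3% in control 3 (46.2 to 50.4%). It held 46.9% in SAM 1 (45.4 to 48.3% of 4322 counts), 47.0% in SAM 2 (44.5 to 49.5%) and 48.7% in SAM 3 (46.6 to 50.8%). The intervals cover counting error only. The mean was 48.6 ± 0.458% in controls and 47.5 ± 1.01% with SAM (SD, n = 3), a difference of -1.07 percentage points (exact permutation test, two-sided, p = 0.3), where 3 against 3 libraries cannot go below 0.1. The SAM 3 share lay inside the control range, and SAM 1 and SAM 2 lay below it.

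The type II genes are taken in the order of what they bind. MAGED1, which binds the neurotrophin receptor NGFR and the ligase PJA1, read 55.3, 51.5 and 57.7 CPM in controls and 48.9, 54.97 and 61.5 CPM with SAM. SAM 1 was the lowest and SAM 3 the highest of all libraries, so the SAM group enclosed the controls. The log2 change was 0.01 (SE 0.11, adjusted p = 0.980). MAGEH1, a short single-exon gene whose protein also binds NGFR, had 23, 53 and 49 counts in controls and 102, 32 and 34 with SAM. These are 2.47, 2.41 and 2.399 CPM against 3.51, 2.71 and 2.24 CPM, with SAM 3 below and SAM 1 and SAM 2 above all controls. Its log2 change was 0.26 (SE 0.21, adjusted p = 0.433), and was 0.02 without SAM 1 and 0.40 without SAM 3.

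MAGED2, a regulator of renal salt transport that is mutated in a transient form of antenatal Bartter syndrome, read 108.9, 123.7 and 114.0 CPM in controls and 129.7, 124.7 and 131.4 CPM with SAM. All SAM libraries stood above all controls, although SAM 2 and control 2 lay close together. The means were 115.5 ± 7.52 and 128.6 ± 3.47 CPM (SD, n = 3), a log2 change of 0.15 (SE 0.09) that did not pass the test (adjusted p = 0.285). MAGEF1, which works with the ligase NSMCE1 on MMS19, an iron-sulphur cluster assembly factor, read 57.9, 64.8 and 60.4 CPM in controls and 59.8, 58.4 and 60.1 CPM with SAM. The SAM values lay inside the control range. Its log2 change was -0.04 (SE 0.09, adjusted p = 0.779). MAGED1 (ENSG00000179222, X:51803007-51902357), MAGED2 (ENSG00000102316, X:54807599-54816012) and MAGEH1 (ENSG00000187601, X:55452105-55453566) lie on the plus strand of chromosome X, and MAGEF1 (ENSG00000177383, 3:184710367-184712002) on the minus strand of chromosome 3. MAGED1 and MAGED2 have 13 exons each in the main transcript, and MAGEF1 and MAGEH1 have 1.

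Counted together, 2 of the 6 genes were called higher and 0 lower by edgeR at an adjusted p under 0.05, beside 5.19% of all 15312 tested genes called higher and 5.24% called lower. In 3 of the 6 all SAM libraries stood above all controls and in 0 below, beside 17.9% and 18.8% of all tested genes. The median log2 change of the 6 was 0.21, beside -0.01 over all tested genes. Because the genes were selected on this contrast, nothing is read from these counts.

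**Figure D4:**
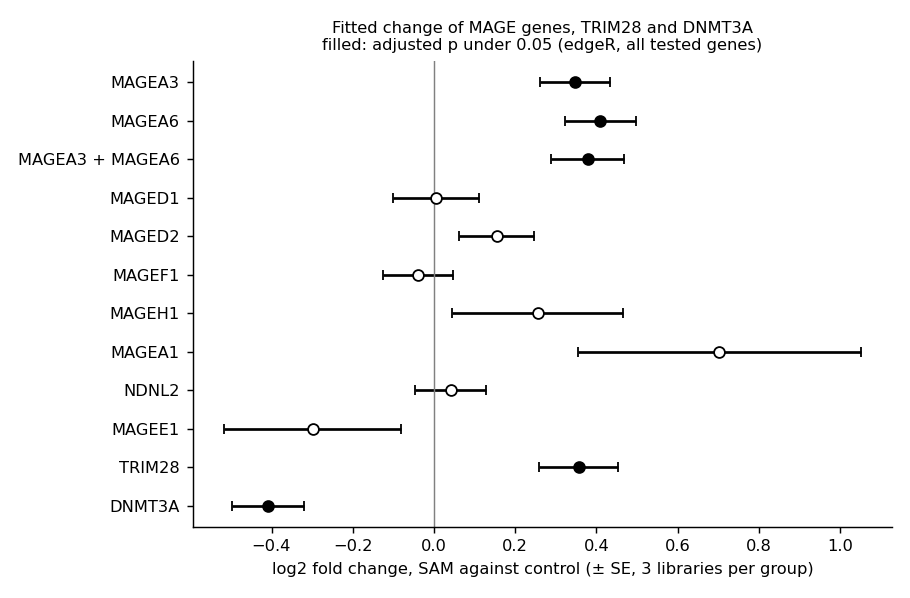
Log2 fold change of SAM against control (horizontal axis, ± SE, 3 libraries per group) for the 6 genes, the MAGEA3 and MAGEA6 sum, the other 3 tested MAGE genes, TRIM28 and DNMT3A, filled where the adjusted p was under 0.05. MAGEA3, MAGEA6, their sum and TRIM28 are filled to the right of 0 and DNMT3A to the left, and MAGEA1 has the longest error bar.

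Levels between genes were compared per kilobase of the deposited transcript length (1724 bases for MAGEA3, 1740 for MAGEA6, 2701 for MAGED1, 2189 for MAGED2, 1636 for MAGEF1 and 1462 for MAGEH1). In controls MAGED2 was the most abundant at 52.8 ± 3.44 CPM per kb, followed by MAGEF1 at 37.3 ± 2.14, MAGEA6 at 32.2 ± 0.382, MAGEA3 at 30.7 ± 0.550, MAGED1 at 20.3 ± 1.15 and MAGEH1 at 1.66 ± 0.0254 (SD, n = 3). No neighbours in this order overlapped between control libraries, but the places of MAGEA3 and MAGEA6, against each other and against the other genes, depend on how reads that match both were treated. If such reads were left out of the counts, the pair is understated beside genes whose windows are nearly all their own. With SAM the order was MAGED2 (58.8 ± 1.59 CPM per kb), MAGEA6 (42.7 ± 2.48), MAGEA3 (38.99 ± 2.21), MAGEF1 (36.3 ± 0.576), MAGED1 (20.4 ± 2.34) and MAGEH1 (1.93 ± 0.439). There MAGEA3 and MAGEF1 overlapped, at 36.4 to 40.5 and 35.7 to 36.8 CPM per kb. As counted, MAGEA3 and MAGEA6 together took, of all MAGE counts in the table, 28.7 to 30.2% in controls and 33.1 to 35.3% with SAM, without overlap.

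**Figure D5:**
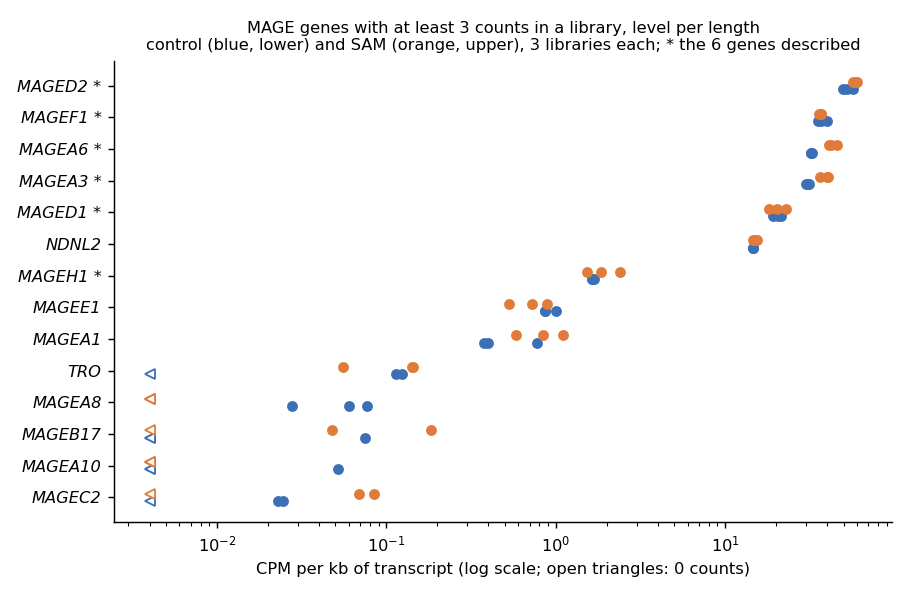
CPM per kb of transcript (log scale, horizontal axis) of each MAGE gene with at least 3 counts in a library (vertical axis), for control (blue) and SAM (orange) libraries, with open triangles for libraries at 0 counts. MAGED2, MAGEF1, MAGEA6, MAGEA3, MAGED1 and NDNL2 stand apart at the right, and no other type I gene than MAGEA3 and MAGEA6 exceeds 2 CPM per kb.

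Among the type I genes most reads, as counted, were assigned to this pair. Some 50-base windows of MAGEA3 and MAGEA6 also occur in MAGEA2B and MAGEA12, so the low counts of those genes depend on how shared reads were treated. Of 22 other type I genes in the table, 10 had no count in any library, 5 reached 3 counts in at least 1 library and only MAGEA1 was tested. MAGEA1 (X:153179285-153183880) had 6, 15 and 27 counts in controls and 55, 17 and 15 with SAM, which are 0.644, 0.681 and 1.32 CPM against 1.89, 1.44 and 0.990 CPM. Control 3 stood above SAM 3, so the groups overlapped, and the log2 change of 0.70 (SE 0.35) did not pass the test (adjusted p = 0.202). It was 0.38 without SAM 1, 1.14 without control 3 and 0.25 with every library thinned to the shallowest. MAGEC2 had 0, 1 and 1 counts in controls and 4, 2 and 0 with SAM, and MAGEB17 had 1, 0 and 0 against 2, 0 and 4. MAGEA8 had 1, 3 and 1 counts in controls and none with SAM, and MAGEA10 had 3 counts, all in control 2. These 4 genes are at or near the floor of 3 counts, and a difference was not detectable at this depth. MAGEA3 and MAGEA6 lie 63.8 kb apart, and the 5 genes of the table between them had 4 counts in all over the 6 libraries, at most 1 each per library. Neither CSAG1 nor CSAG4, genes of the same cluster, reached 3 counts, and neither did any of 27 other X-linked cancer-testis genes in the table, of which 22 had none. The treatment of reads that match several genes was not stated. For any of these genes with near-identical copies, a count of 0 therefore does not show that it was silent.

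Type II genes outside the selection gave few counts with the exception of NDNL2, the MAGE subunit of the SMC5-SMC6 complex that is also named NSMCE3. NDNL2 read 24.56, 24.57 and 24.58 CPM in controls and 25.25, 24.61 and 25.95 CPM with SAM. All SAM values stood above all controls, as in 17.9% of all tested genes, but SAM 2 and control 3 were nearly equal. NDNL2 did not pass the test (log2 change 0.04, SE 0.09, adjusted p = 0.779). MAGEE1 went from 3.30 ± 0.296 to 2.59 ± 0.662 CPM (SD, n = 3) with overlap between the groups (log2 change -0.30, SE 0.22, adjusted p = 0.378), and its log2 change was -0.54 without SAM 1 and -0.12 without SAM 3. TRO had 0, 3 and 3 counts in controls and 5, 2 and 1 with SAM.

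The partners of MAGE proteins are given from lists drawn up with earlier results of these data known. Of 7 RING ligases, 1 was called higher and 0 lower, beside 5.19% and 5.24% of all tested genes, and their median log2 change was 0.09, beside -0.01 over all tested genes. This was TRIM28, a corepressor scaffold that also serves as the ligase of MAGEA3 and MAGEA6, at 627, 620.5 and 635 CPM in controls and 766, 749 and 895 CPM with SAM. The groups did not overlap, the SAM 3 library being highest (log2 change 0.36, SE 0.10, adjusted p = 0.0451). Its call was lost without control 1, control 2, control 3 or SAM 1 (adjusted p 0.171, 0.146, 0.182 and 0.0940). Among the other ligases TRIM27 (94.0 CPM in controls, 95.7 with SAM), SKP2 (65.4 and 83.7 CPM, adjusted p = 0.101) and PJA1 (46.5 and 43.7 CPM) did not pass the test.

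None of the 6 listed substrates of MAGE ligases was called in either direction by edgeR. Over all tested genes 5.19% were called higher and 5.24% lower. No call in a list of 4 to 6 genes is near these shares, and nothing is read from it here or for the lists that follow. PRKAA1, a catalytic subunit of AMP-activated kinase that the MAGEA3 and MAGEA6 ligase degrades, stood at 119.6 ± 7.51 CPM in controls and 93.4 ± 23.4 CPM with SAM (SD, n = 3). Its SAM values were 108, 106 and 66.3 CPM, all under the controls with SAM 3 far below the rest (adjusted p = 0.185). MMS19 read 79.0 and 76.9 CPM, FBP1 25.2 and 28.0 CPM and WASH1 9.88 and 11.2 CPM in controls and with SAM, and none passed. The CRL4 genes DDB1, CUL4A, CUL4B and DCAF12, the last being the receptor that marks MAGEA3 and MAGEA6 for degradation, gave 0 calls of 4. DCAF12 was at 61.1 ± 2.53 CPM in controls and 58.2 ± 6.37 CPM with SAM (SD, n = 3, adjusted p = 0.682). None of 6 tested SMC5-SMC6 genes passed, among them SMC6 (59.5 and 63.1 CPM), SMC5 (40.3 and 37.2 CPM), NSMCE2 (32.7 and 35.5 CPM) and NSMCE1 (30.6 and 34.6 CPM). Of 6 tested partners around the neurotrophin receptor, 0 were called. XIAP, an inhibitor of caspases, read 95.3 and 79.9 CPM, NGFRAP1 66.0 and 64.2 CPM and BEX2 4.33 and 4.22 CPM, and NGFR itself had means of 1.84 and 2.997 CPM without overlap between the groups (adjusted p = 0.0875).

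Because type I promoters are known to be held silent by DNA methylation, its enzymes were listed too. Of 6 tested, 0 were called higher and 1 lower, beside 5.19% and 5.24% of all tested genes, and their median log2 change was -0.23. DNMT3A, a de novo DNA methyltransferase, read 33.5, 31.9 and 30.9 CPM in controls and 24.0, 25.0 and 23.4 CPM with SAM, without overlap (log2 change -0.41, SE 0.09, adjusted p = 0.0222). Without control 1, control 2, control 3 or SAM 1 its adjusted p was 0.117, 0.0956, 0.111 and 0.0806. DNMT1, the maintenance enzyme, stood at 292 ± 20.6 and 317 ± 22.7 CPM (SD, n = 3, adjusted p = 0.436). TET3 (40.7 and 38.3 CPM) and TET2 (24.2 and 15.4 CPM, adjusted p = 0.0976) did not pass the test either. Whether any of these levels bears on MAGEA3 and MAGEA6 was not tested.

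Neighbours on the chromosome gave no common direction around the MAGEA pair. GABRA3, a GABA receptor subunit and the nearest tested gene on the far side of MAGEA3, 247 kb away, fell from 9.35 to 6.09 CPM (log2 change -0.62, SE 0.13, adjusted p = 0.0200), with no overlap between the groups. On the far side of MAGEA6, CETN2, a centrin, lay 57.2 kb away at 49.8 and 52.0 CPM and did not pass the test (adjusted p = 0.720). Next to MAGEF1, EIF2B5 on one side was higher with SAM (71.6 to 89.8 CPM, log2 change 0.33, SE 0.09, adjusted p = 0.0476), and VPS8 on the other read 32.8 and 31.5 CPM. Next to MAGEH1, FAM104B was higher (11.9 to 16.4 CPM, log2 change 0.47, SE 0.13, adjusted p = 0.0488), and RRAGB read 6.82 and 6.75 CPM. The neighbours of MAGED1 (GSPT2 and FAM156B) and of MAGED2 (GNL3L and PFKFB1) did not pass the test. The calls of GABRA3, EIF2B5 and FAM104B were each lost without control 1 (adjusted p 0.0837, 0.193 and 0.142), without control 2 (0.0701, 0.158 and 0.129), without control 3 (0.110, 0.154 and 0.205) and without SAM 1 (0.0760, 0.108 and 0.139).

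The genes whose log2 CPM ran most like each member over the 6 libraries were sought among 11641 to 11643 tested genes whose mean log2 CPM reached 2. For the MAGEA3 and MAGEA6 sum these were PPID (Pearson r 0.998), ZBED2 (0.998) and CDR2L (0.997), and 397 genes reached 0.95. For MAGED1 they were PRPF6 (0.993), ACOX3 (0.990) and CDK11B (0.983), and for MAGED2 MRFAP1L1 (0.989), SPATA2L (0.989) and SLC2A4RG (0.988). MAGEF1 was most like RP13-270P17.2 (0.978), UBAC2 (0.958) and NREP (0.95), and MAGEH1 most like C12orf29 (0.995), CEBPZ (0.995) and MAPK8 (0.994). Between members r was 0.981 for MAGEA3 and MAGEA6, 0.850 for MAGEA3 and MAGED2 and -0.784 for MAGED1 and MAGEH1. All these values share the same 6 libraries, their depths and the treatment, and are given as a description.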

How the data were processed

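RNA of PC-3 cells was sequenced in 3 SAM and 3 control libraries. Per the labels, TruSeq libraries were run on a HiSeq2000. Tools listed without their roles in the submitters' processing notes are STAR 2.4, HTSeq 0.6.1, SAMtools 0.1.19, DESeq2 1.8, FastQC 0.10.0 and CASAVA 1.8.2. The builds listed are mm10 and hg19. The study's text describes its RNA sequencing differently (SAM dose, kit, instrument), and the labels were followed. The authors deposited raw counts per Ensembl gene and a normalised signal, the count over 1 size factor per library. The deposited table also holds 1 transcript length per gene, used for levels per kb. Of 51488 identifiers also in GENCODE release 44 (GRCh38), 99.8% overlapped their gene there. Strand use in counting was not stated.

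Counts were tested in edgeR 4.0.16 (glmQLFit and glmQLFTest, R 4.3.3) after filterByExpr and TMM scaling, with treatment as the only term, two-sided, and Benjamini-Hochberg adjustment over all genes. The fit was tested on simulated data. Libraries of a group differed beyond sampling noise, so none was merged. The members and lists were chosen with earlier results of these data known. Named are the members, other MAGE and CSAG genes with at least 3 counts in a library, called genes and up to 4 of the highest genes per list, the nearest tested neighbours and the 3 most correlated genes per member. Genes named for a count of 0 or near it were picked after their values were seen. Some genes of the marker lists are not reported here. RefSeq promoters matched 5 of the 6 members. Alternatives were other scalings and filters, robust dispersion, DESeq2 1.42.0, limma 3.58.1 (voom, or a trend on log2 of the deposited values plus 1), the replicate block, left-out libraries, a term for control 1 and SAM 2, and thinning. Removal of a GC and length trend, and all alternatives for genes other than members, were added after seeing the data. Permutation tests used scipy 1.17.1.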

Additional observations from a re-analysis of the deposited data

How the results depend on the processing

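Of the values tried under 20 alternatives, the log2 change of MAGEA3, MAGEA6 and their sum was positive in all, and passed the test in 13, 14 and 14. Deviations from the group means correlated at -0.17, -0.40 and 0.13 between libraries of the same replicate number. Between unlike numbers they correlated at -0.33 to 0.45. With 3 libraries per group these values cannot decide whether the replicates were paired, and the labels do not say. Under the replicate block MAGEA3, MAGEA6 and the sum kept 0.34, 0.41 and 0.38 but lost their calls (adjusted p 0.0972, 0.0617 and 0.0931), so 0 members were called, and the genes called higher numbered 440. The block also ended the calls of TRIM28, DNMT3A, CDH1, TMPRSS2, GABRA3, EIF2B5 and FAM104B. Over the 20 alternatives CDH1 was called in 15, DNMT3A and GABRA3 in 14, TRIM28 in 12, FAM104B in 11, EIF2B5 in 10 and TMPRSS2 in 9. Some of these losses came with another tool or scaling. TMPRSS2 was lost in DESeq2 (adjusted p = 0.0594), and TRIM28, EIF2B5 and FAM104B with library totals only (edgeR adjusted p 0.0562, 0.0704 and 0.0609). Without control 1 and SAM 2 the log2 changes were 0.40, 0.46 and 0.43 without a call (0 members), with 446 genes higher and 508 lower over 4 libraries. With library totals only, MAGEA3 (0.32) missed the threshold, so 1 member was called, and MAGED1 turned to -0.027. MAGED1 was also negative in limma voom (-0.0021), without control 2 (-0.04) and without SAM 3 (-0.080), and MAGEF1 was positive when thinned (0.0087) and without control 2 (0.0050). None of these was called and the cause was not tested.

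The whole-table counts were 1402 higher and 1341 lower with no filter, 1256 and 1246 when control 1 and SAM 2 were given a term, and 1609 and 1272 with the GC and length trend removed, where MAGEA3, MAGEA6 and the sum gave 0.28, 0.34 and 0.31 and were called. SAM 3 had a GC slope of 0.12 log2 per 10 percentage points, against -0.06 to -0.0012 in the other libraries. With each library left out in turn the counts ranged from 61 to 1661 higher and 78 to 1572 lower, members called from 0 to 2, and the log2 change from 0.31 to 0.39 for MAGEA3, 0.36 to 0.44 for MAGEA6, 0.34 to 0.42 for the sum, 0.11 to 0.21 for MAGED2, -0.080 to 0.083 for MAGED1, -0.076 to 0.0050 for MAGEF1 and 0.02 to 0.40 for MAGEH1. The MAGEA3 share difference ranged from -1.65 to -0.744 percentage points. Depth limits MAGEH1 and MAGEA1, with 6 to 102 counts per library.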
